A study of Homo sapiens with 8 samples.

Results

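The genes described here are 10 immediate early genes of the EGR, NR4A, IER and ZFP36 families, chosen by gene symbol: EGR1, EGR2, EGR3, NR4A1, NR4A2, IER2, IER3, ZFP36, ZFP36L1 and ZFP36L2. Of these, 8 had a probe among the 24526 probes of the table, with 10 probes in all, and 7 were bright enough to be tested among 10856 genes. EGR2 and IER3 had no listed probe and were not analysed here. The measurements come from SW620, an established human colorectal cancer cell line, on single-colour Illumina bead arrays, in which the brightness of a probe's beads reports the abundance of 1 mRNA. There were 4 groups with 2 arrays each, all taken at 24 h: cells left untreated, cells under 4 uM Y15, cells that received a scrambled sequence as transfection control, and cells that received HAS3 siRNA. Y15 is a small molecule that inhibits the focal adhesion kinase FAK (gene PTK2), and HAS3 makes hyaluronan, a polysaccharide of the cell surface and matrix. Untreated cells are the control for Y15 and the scrambled transfection that for HAS3 siRNA, and the series title names genes common to both inhibitions. All groups are the same cell line, and nothing in the labels says whether the 2 arrays of a group came from separate cultures, so p-values measure only array-to-array spread, which may be of technical origin.

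Immediate early genes are transcribed within minutes of a growth factor, adhesion or stress signal without new protein synthesis, largely through ERK signalling to serum response factor (SRF) and its ETS partners and through CREB. EGR1, EGR2 and EGR3 are zinc finger transcription factors that bind GC-rich sites, and NR4A1 and NR4A2 are orphan nuclear receptors that act without a known classical hormone ligand. ZFP36 (tristetraprolin), ZFP36L1 and ZFP36L2 act later in the same programme: they bind AU-rich elements in the 3′ untranslated regions of short-lived mRNAs, bring in the CCR4-NOT deadenylase and so speed the decay of cytokine and growth factor transcripts. The samples were taken at 24 h alone, so the first wave of induction was not measured.

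Mean raw probe intensity was 234.1 on the second Y15 array and 352.1 to 524.7 on the other 7, and between 12578 and 13916 probes were detected per array. Of 10 colon epithelium markers, 7 were detected on all 8 arrays and CDX1, KRT20 and LGALS4 on none. No marker of a list of 6 fibroblast genes or of 6 leukocyte genes was detected on all arrays, with COL1A2, COL3A1, CD3D, CD3E and PTPRC detected on none, and 1 of 4 endothelial markers was detected on all. The targeted mRNAs gave little check of the labels. HAS3 was lower by 0.43 ± 0.17 (log2, SE) with its siRNA than with the scrambled sequence, at a limma adjusted p of 0.151. The scrambled cells were themselves above untreated cells in HAS3 by 0.91 ± 0.17 (adjusted p = 0.00329). HAS3 siRNA cells were above untreated cells by 0.48 ± 0.17 (adjusted p = 0.0534), so HAS3 mRNA was not below the untreated level. PTK2, whose protein and not mRNA is the target of Y15, differed by -0.11 with Y15 at an adjusted p of 0.586. Levels below are normalized log2 intensities, in which a difference of 1 is a doubling, and they are compared between groups for 1 probe and never between probes. Tests are limma's moderated tests on group means over all 8 arrays, with n = 2 arrays a group, a Benjamini-Hochberg adjustment over the 10856 genes, and a threshold of 0.05. In bulk RNA, fewer cells expressing a gene and less RNA per cell cannot be told apart.

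The members were chosen with earlier results of these data known, so the shares of all genes given beside them are descriptions and no test of the set. With Y15, 6 of the 7 tested members rose and none fell, against 18.8% of all genes that rose and 23% that fell (41.8% in either direction). With HAS3 siRNA the direction was the opposite: 5 of the 7 fell against the scrambled control and none rose, where 4.74% of all genes fell and 3.47% rose (8.22% in either direction). The median log2 difference of the members was 1.27 with Y15 and -0.71 with HAS3 siRNA, beside -0.03 and 0.01 over all genes tested. EGR1, EGR3, ZFP36 and ZFP36L1 passed in both comparisons, higher with Y15 and lower with HAS3 siRNA (EGR3 on 1 of its 2 probes, the other passing in neither), a combination found in 105 of the 10856 genes (0.967%). The arrays of the 2 groups did not overlap for any of the 7 members in either comparison, a criterion that 67.8% of all genes met for Y15 and 57.6% for HAS3 siRNA. With each array centred on its median over all probes in place of quantile normalization, the Y15 rises of EGR1, EGR3, ZFP36 and ZFP36L1 passed and those of IER2 and ZFP36L2 did not, and none of the HAS3 siRNA falls passed (limma adjusted p of 0.056 to 0.489), although 5 members had an unadjusted p under 0.05.

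**Figure D1:**
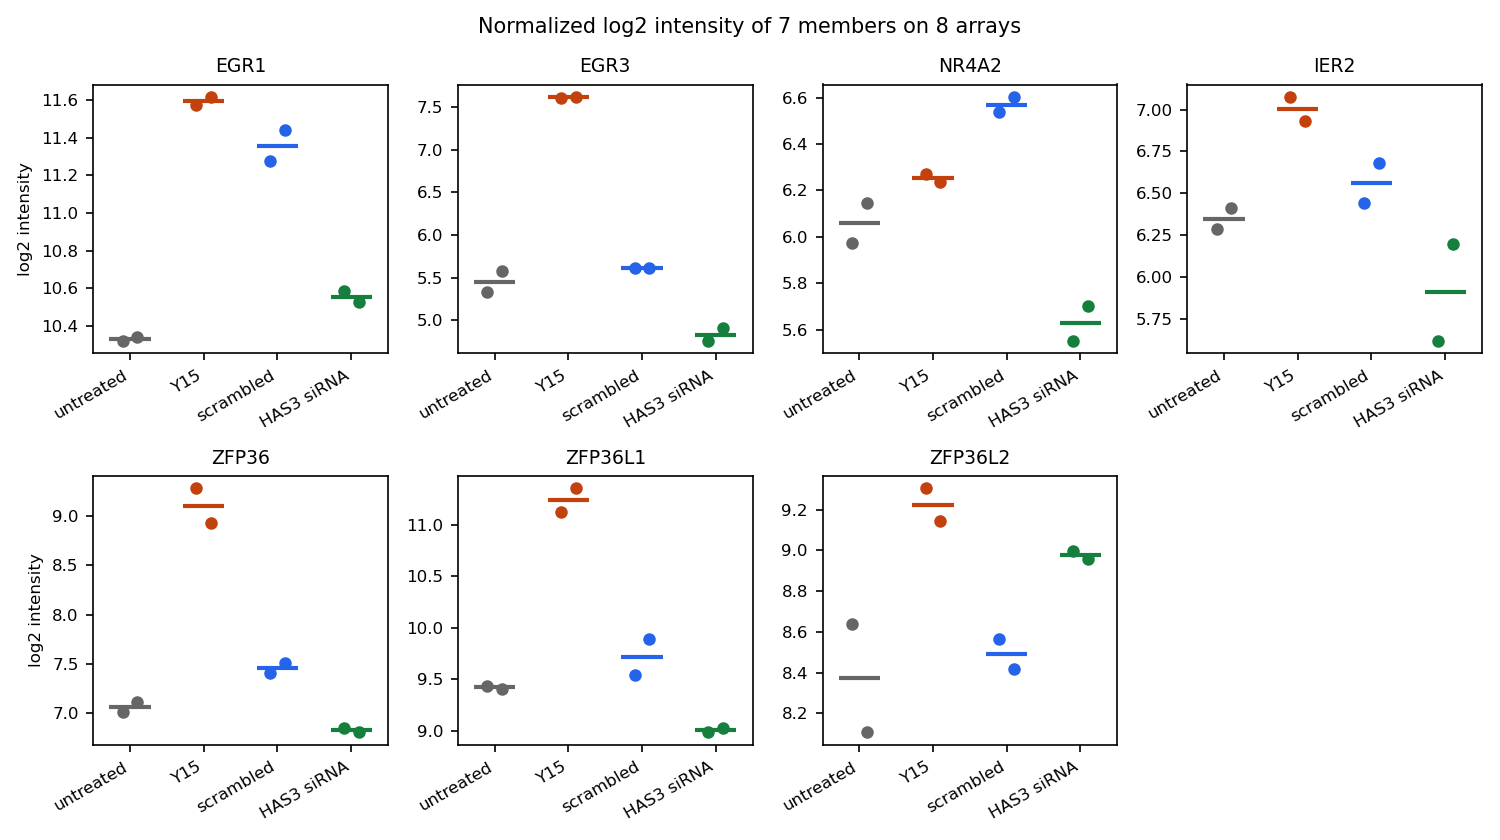
Normalized log2 intensity (y axis, a separate scale for each gene) of the 7 tested members in the 4 groups (x axis). Points are single arrays and bars are group means. The 2 Y15 arrays stand highest for EGR1, EGR3, IER2, ZFP36, ZFP36L1 and ZFP36L2, and the 2 HAS3 siRNA arrays lowest for EGR3, NR4A2, IER2, ZFP36 and ZFP36L1.

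EGR1, the best known ERK and SRF target of the family, is shown first with the 250 bases before its start. This window holds 2 matches to the SRF binding element (CArG boxes, in capitals), and bases further upstream were not searched. The sequence is from RefSeq on GRCh38.p14, plus strand, chr5:138465229-138465478, written 5′ to 3′.
EGR1: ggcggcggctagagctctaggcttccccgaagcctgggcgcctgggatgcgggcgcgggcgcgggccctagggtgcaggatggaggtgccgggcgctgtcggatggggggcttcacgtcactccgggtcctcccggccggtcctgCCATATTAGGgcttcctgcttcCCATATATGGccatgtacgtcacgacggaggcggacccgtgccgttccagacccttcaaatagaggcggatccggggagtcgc
The CArG boxes begin 105 and 83 bases before the start. A CArG box, CC followed by 6 bases of A or T and then GG on either strand, was present in 1.29% of the 35116 promoter windows of this table (250 bases before to 50 after each start). The EGR1 window also holds 2 copies of TGACG, the shorter CREB site, a motif found in 24.6% of all windows, and no copy of the EGR site GCGTGGGCG, found in 0.795%. Motif matches are descriptions of the letters and no binding was measured here.

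The EGR1 level was 10.32 and 10.34 on the 2 untreated arrays and 11.57 and 11.62 on the 2 Y15 arrays. On the scrambled arrays it was 11.28 and 11.44, and on the HAS3 siRNA arrays 10.58 and 10.52. Y15 and scrambled cells were thus high, untreated and HAS3 siRNA cells low, and no 2 groups overlapped. EGR1 rose 2.41-fold with Y15 (log2 difference 1.27 ± 0.13, SE, limma adjusted p = 2.004e-05). It fell by 0.81 ± 0.13 on the log2 scale with HAS3 siRNA against the scrambled control (1.75-fold, adjusted p = 0.00264). The scrambled transfection itself stood 2.04-fold above untreated cells (log2 difference 1.03 ± 0.13, adjusted p = 0.000418), among 8.84% of all genes that were higher there. HAS3 siRNA cells differed from untreated cells by 0.23 (log2), which did not pass (adjusted p = 0.235). The comparisons with untreated cells and with HAS3 siRNA share the scrambled arrays.

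EGR3, a zinc finger factor that recognises the same DNA sites as EGR1, was measured with 2 probes. The probe of higher mean over all 8 arrays was used for the test, and it had the higher mean only through Y15: the other probe had the higher group mean in untreated (5.61 against 5.46), scrambled (5.78 against 5.62) and HAS3 siRNA cells (5.51 against 4.84). On the probe used, the level was 5.33 and 5.58 in untreated cells and 7.61 and 7.62 with Y15. It was 5.62 and 5.62 with the scrambled sequence and 4.76 and 4.91 with HAS3 siRNA. The Y15 arrays stood clear of all the others, and the other 3 groups lay near the lower end of detection: detection p on the HAS3 siRNA arrays was 0.0485 and 0.0453, just under the 0.05 used here. On this probe EGR3 rose 4.46-fold with Y15 (log2 difference 2.16 ± 0.14, limma adjusted p = 6.83e-07), and since its Y15 signal decided the choice of probe, this value is open to that choice. It fell by 0.78 ± 0.14 (log2) with HAS3 siRNA against scrambled (1.72-fold, adjusted p = 0.00438, but 0.0674 without the first HAS3 siRNA array) and by 0.62 ± 0.14 against untreated cells (adjusted p = 0.00717). Scrambled and untreated cells differed by 0.16 (adjusted p = 0.460).

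The second EGR3 probe did not show this. Its level was 5.38 and 5.84 in untreated cells, 5.96 and 6.25 with Y15, 5.61 and 5.94 with the scrambled sequence and 5.31 and 5.72 with HAS3 siRNA. Y15 was the highest group here too, but by 0.50 ± 0.20 (log2), with an adjusted p of 0.0691 over all 14631 kept probes. HAS3 siRNA and scrambled arrays overlapped, with a difference of -0.26 (adjusted p = 0.511). HAS3 siRNA and untreated arrays overlapped too, with a difference of -0.10 (adjusted p = 0.779). Both probes are annotated to the same RefSeq transcript, and why they differ was not tested. With the mean of both probes in place of the probe used, the fall of EGR3 with HAS3 siRNA was 0.52 on the log2 scale and did not pass (adjusted p = 0.0717).

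**Figure D2:**
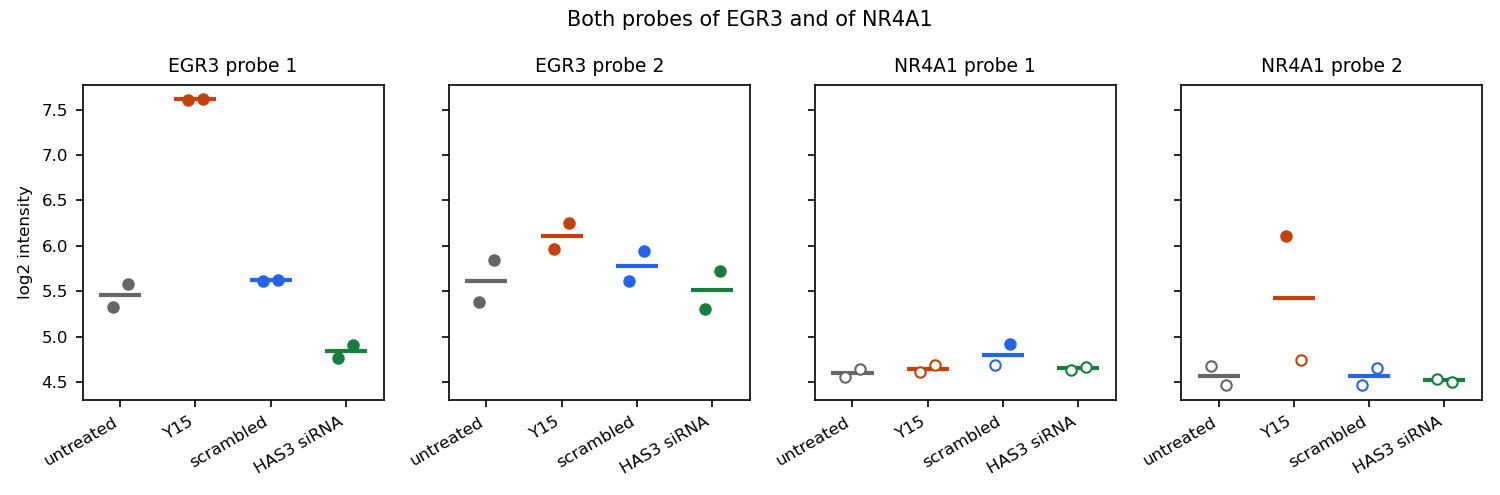
Normalized log2 intensity (y axis) on each array of the 4 groups (x axis) for the genes measured with 2 probes, EGR3 and NR4A1. Each point is 1 array, filled where the probe was detected (detection p under 0.05) and open where it was not. The EGR3 probe used reaches 7.61 and 7.62 with Y15 while the second stays between 5.31 and 6.25 on all arrays, and the only NR4A1 value above 5 is 6.11 on 1 Y15 array.

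NR4A2 (Nurr1), an orphan nuclear receptor induced by cAMP and ERK signals, had a different order of groups. Its level was 5.97 and 6.15 in untreated cells, 6.27 and 6.24 with Y15, 6.54 and 6.60 with the scrambled sequence and 5.55 and 5.70 with HAS3 siRNA. The scrambled arrays were highest and the HAS3 siRNA arrays lowest, with no overlap between groups. The Y15 difference of 0.19 ± 0.13 (log2) did not pass (adjusted p = 0.273), with a 95% interval of -0.10 to 0.49. With HAS3 siRNA, NR4A2 fell by 0.94 ± 0.13 (1.92-fold, adjusted p = 0.00121), the largest fall among the members. The signal of NR4A2 was low on the HAS3 siRNA arrays, with detection p of 0.0162 and 0.0129. Its level in scrambled cells was 1.42-fold that in untreated cells (log2 difference 0.51 ± 0.13, adjusted p = 0.0212) and fell by 0.43 ± 0.13 between untreated and HAS3 siRNA cells (adjusted p = 0.0348). The rise in scrambled cells did not pass without the first untreated array (adjusted p = 0.13), without the first scrambled array (0.0997) or without the second (0.123).

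NR4A1 (Nur77) was close to background. Both of its probes, annotated to different transcripts, were detected on 1 of 8 arrays each and so did not enter the test. The first probe lay between 4.56 and 4.92 on all arrays. The second read 4.68 and 4.46 in untreated cells and 6.11 and 4.74 with Y15, where the first Y15 array had a raw intensity of 100.1 and a detection p of 0.00324 and the second was not detected. It lay between 4.47 and 4.65 on the 4 transfected arrays. When every gene was tested without a detection filter (16922 genes), the Y15 difference was 0.85 ± 0.38 with an adjusted p of 0.163 and the HAS3 siRNA difference was -0.05 with an adjusted p of 0.984, so no difference in NR4A1 was detectable at this signal.

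IER2, a small nuclear protein of the immediate early response, was 6.29 and 6.41 in untreated cells, 7.08 and 6.93 with Y15, 6.44 and 6.68 with the scrambled sequence and 5.62 and 6.20 with HAS3 siRNA. The HAS3 siRNA arrays lay far apart from each other, with an SD of 0.411, the widest of the 7 tested members in any group. IER2 rose 1.57-fold with Y15 (log2 difference 0.65 ± 0.18, limma adjusted p = 0.0137), a call that was lost without the first untreated array (adjusted p = 0.0813). With HAS3 siRNA it was lower by the same amount, -0.65 ± 0.18, which did not pass (adjusted p = 0.0513). Without the second HAS3 siRNA array, the higher of the pair, the difference was -0.94 with an adjusted p of 0.021. IER2 did not differ between scrambled and untreated cells at the threshold (log2 difference 0.21, adjusted p = 0.468).

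The ZFP36 family members, which encode decay factors, are shown with the upstream windows of ZFP36 and ZFP36L1. ZFP36 and ZFP36L1 moved nearly in step with the EGR3 probe used, a likeness open to the choice of that probe through Y15. ZFP36L2 did not, with a Pearson r of 0.492 to that probe over the 8 arrays. The letters of both windows shown differ from those of EGR1. Both are from RefSeq on GRCh38.p14, ZFP36 on the plus strand at chr19:39406597-39406846 and the second of the ZFP36L1 windows on the minus strand at chr14:68793417-68793666, written 5′ to 3′ with the full CRE (TGACGTCA, the CREB site) in capitals.
ZFP36: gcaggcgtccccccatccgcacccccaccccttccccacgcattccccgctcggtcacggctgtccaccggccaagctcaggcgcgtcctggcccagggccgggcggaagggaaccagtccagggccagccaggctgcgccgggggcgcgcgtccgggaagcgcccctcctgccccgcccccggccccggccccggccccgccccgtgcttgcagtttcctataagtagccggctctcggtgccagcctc
ZFP36L1: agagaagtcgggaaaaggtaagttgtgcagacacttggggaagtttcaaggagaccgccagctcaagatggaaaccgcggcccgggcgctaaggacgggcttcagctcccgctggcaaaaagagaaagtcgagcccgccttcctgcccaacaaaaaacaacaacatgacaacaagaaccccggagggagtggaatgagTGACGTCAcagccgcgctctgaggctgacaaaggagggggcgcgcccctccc
The ZFP36 window, 74.7% G and C, holds none of the motifs searched. The ZFP36L1 window holds 1 CRE, whose first base lies 52 bases before the start, a motif present in 1.85% of all windows, and no CArG box. The other ZFP36L1 window and the IER2 window hold 1 copy each of the shorter site TGACG and none of the longer motifs. The absence of a match says only that these letters are not in this window. NR4A2 and ZFP36L2 had no entry in the promoter table.

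ZFP36 was 7.01 and 7.12 in untreated cells and 9.28 and 8.92 with Y15. It was 7.41 and 7.51 with the scrambled sequence and 6.85 and 6.81 with HAS3 siRNA. Y15 cells were far above the rest and HAS3 siRNA cells lowest, with no overlap between groups. ZFP36 rose 4.11-fold with Y15 (log2 difference 2.04 ± 0.15, limma adjusted p = 1.70e-06). With HAS3 siRNA it fell by 0.63 ± 0.15 (1.54-fold, adjusted p = 0.0216), and this did not pass in any of the 4 fits that lacked 1 array of the comparison (adjusted p of 0.0867 to 0.179). Scrambled cells were higher than untreated by 0.39 ± 0.15, which did not pass (adjusted p = 0.0832).

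ZFP36L1 was 9.44 and 9.41 in untreated cells and 11.12 and 11.35 with Y15. It was 9.54 and 9.89 with the scrambled sequence and 8.99 and 9.03 with HAS3 siRNA, the same order of groups as ZFP36. ZFP36L1 rose 3.51-fold with Y15 (log2 difference 1.81 ± 0.15, limma adjusted p = 5.08e-06). It fell by 0.71 ± 0.15 with HAS3 siRNA against scrambled (1.63-fold, adjusted p = 0.0132). That fall did not pass without the second scrambled array (adjusted p = 0.18), the first HAS3 siRNA array (0.117) or the second (0.0766). Against untreated cells the HAS3 siRNA level was lower by 0.42 (log2), with an adjusted p of 0.0651.

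ZFP36L2 was the only tested member with a higher level in HAS3 siRNA than in scrambled cells. Its level was 8.64 and 8.11 in untreated cells, 9.31 and 9.14 with Y15, 8.56 and 8.42 with the scrambled sequence and 8.998 and 8.959 with HAS3 siRNA. The Y15 arrays were highest and the HAS3 siRNA arrays next, while scrambled and untreated arrays overlapped, the untreated pair with an SD of 0.375. ZFP36L2 rose 1.81-fold with Y15 (log2 difference 0.85 ± 0.17, limma adjusted p = 0.00204). The HAS3 siRNA level was above the scrambled one by 0.49 ± 0.17 (1.40-fold), which did not pass (adjusted p = 0.115), and it rose 1.52-fold against untreated cells (0.61 ± 0.17, adjusted p = 0.0228). The rise against untreated cells did not pass without the second untreated array (adjusted p = 0.18), the first HAS3 siRNA array (0.12) or the second (0.0933).

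**Figure D3:**
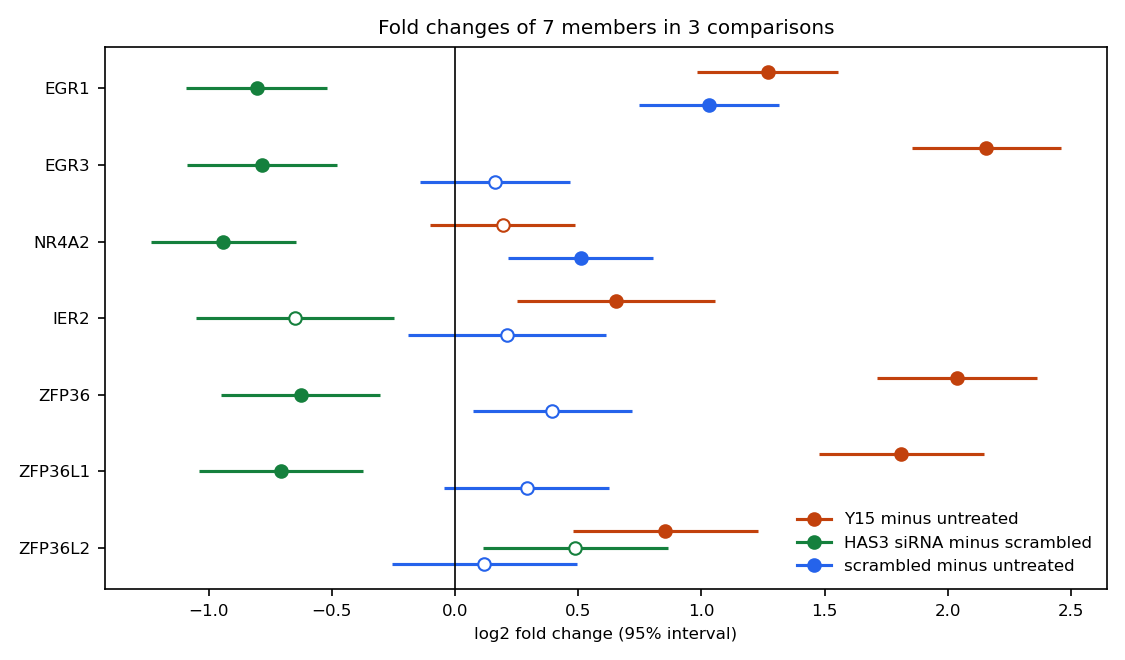
Log2 fold change (x axis) of the 7 tested members in Y15 minus untreated, HAS3 siRNA minus scrambled and scrambled minus untreated. Points are limma estimates from 2 arrays a group, bars are 95% confidence intervals, and points are filled where the adjusted p was under 0.05. With Y15 all estimates lie above 0, from 0.19 for NR4A2 to 2.16 for EGR3, and with HAS3 siRNA 6 of 7 lie below 0. EGR3 is the probe used, which had the higher mean only through Y15, and its second probe gave 0.50 with Y15.

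The second Y15 array was dim as a whole, and raw intensities place the groups differently from normalized ones for some members. In the raw intensities, EGR3, ZFP36 and ZFP36L1 were above both untreated arrays on both Y15 arrays. For EGR1 the raw intensity was 1774.9 and 1655.9 in untreated cells and 3405.9 and 1647.6 with Y15, so the groups overlapped before normalization. IER2 and ZFP36L2 overlapped as well, and NR4A2 was lower on both Y15 arrays. Without the second Y15 array the same 6 members were called, with a log2 difference of 1.25 for EGR1, 2.15 for EGR3, 2.21 for ZFP36 and 1.70 for ZFP36L1. Without the first, EGR1 differed by 1.29 and ZFP36L1 by 1.93. In the raw intensities of the second comparison, EGR1, EGR3, NR4A2 and IER2 were lower on both HAS3 siRNA arrays than on both scrambled arrays, ZFP36 and ZFP36L1 overlapped, and ZFP36L2 was higher.

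Relative to untreated cells, EGR1 and NR4A2 rose with the scrambled sequence and none of the 7 fell, where 19.5% of all genes passed in either direction, the 2 groups were apart for 6 of the 7 as for 62.9% of all genes, and the median of the members was 0.29 beside 0.00 over all genes. Between HAS3 siRNA and untreated cells EGR3 (on the probe used, not on its second probe) and NR4A2 fell and ZFP36L2 rose. Over all genes 14% fell and 12.2% rose (26.2% in either direction). All 7 were apart, EGR3 only on the probe used, as were 63.4% of all genes. Without the second untreated array or without the first HAS3 siRNA array, none of these 3 passed, while 2 members had an unadjusted limma p under 0.05 in each case. The NR4A2 fall against untreated cells did not pass without any 1 of the untreated, scrambled or HAS3 siRNA arrays (adjusted p of 0.053 to 0.201). These comparisons share arrays with the first 2, and the shared arrays bear on each value above.

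The Y15 and HAS3 siRNA effects were set against each other in 1 contrast, the log2 difference with Y15 minus that with HAS3 siRNA. Of the 7 members 6 differed, all with the higher value for Y15, where 13.8% of all genes did so and 30.8% differed in either direction. The difference was 2.94 for EGR3 (limma adjusted p = 1.97e-06), 2.67 for ZFP36 (5.09e-06), 2.52 for ZFP36L1 (9.67e-06) and 2.07 for EGR1 (1.27e-05). For IER2 it was 1.31 (adjusted p = 0.0031) and for NR4A2 1.14 (0.0011). ZFP36L2 had effects of the same sign under both, and its difference of 0.36 did not pass (adjusted p = 0.279). The EGR3 result is that of the probe used, and the second gave 0.76 with an adjusted p of 0.0653 over all probes.

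**Figure D4:**
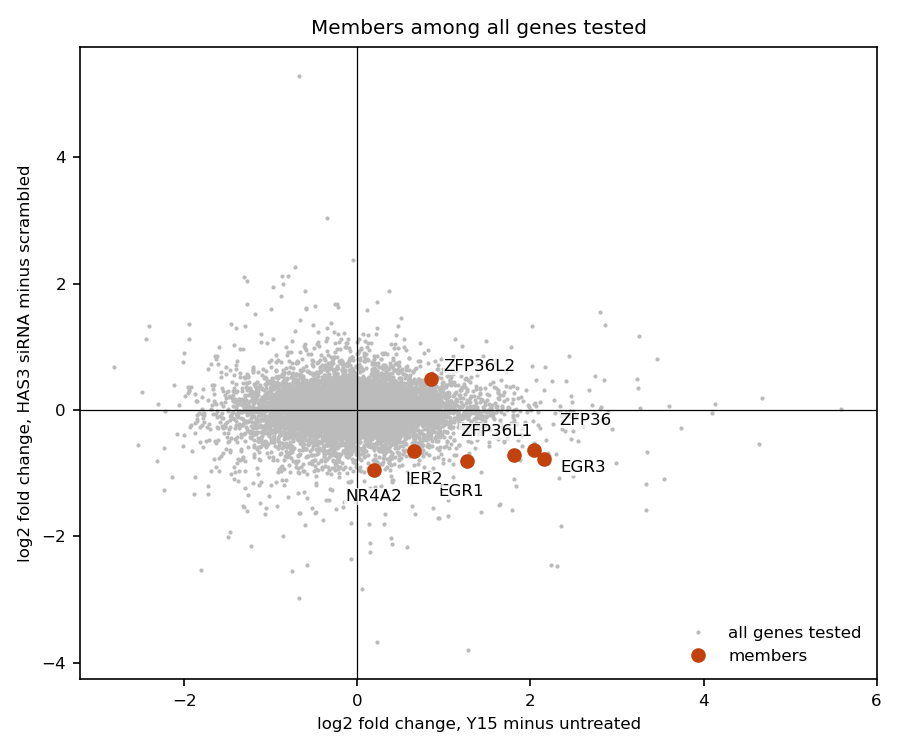
Log2 fold change with HAS3 siRNA against scrambled (y axis) set against that with Y15 against untreated (x axis) for all 10856 genes tested (grey) and the 7 tested members (red, named). The 2 comparisons share no arrays. EGR1, EGR3, NR4A2, IER2, ZFP36 and ZFP36L1 lie to the right of and below 0, and ZFP36L2 to the right of and above 0.

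Among the members, EGR3, ZFP36 and ZFP36L1 followed nearly the same course over the 8 arrays, with Pearson r of 0.985 for EGR3 with ZFP36, 0.988 for EGR3 with ZFP36L1 and 0.979 for ZFP36 with ZFP36L1. EGR3 is here the probe used, which had the higher mean only through Y15. Its likeness to genes high with Y15 is open to that choice of probe. EGR1 followed the other members less closely, at 0.417 to 0.815. The lowest value was that of NR4A2 with ZFP36L2, at -0.324. These are descriptions over 8 arrays in 4 groups that share normalization, so most of the likeness is that of 4 group means. Close genes were sought among 3468 genes outside the members whose log2 level ranged over at least 1 between arrays. Placeholder symbols, such as those that begin with LOC, were passed over. Among these genes the closest to EGR1 were LCK (0.9946) and AHR (0.9629), to EGR3 SLU7 (0.9957) and CAV2 (0.9956), and to NR4A2 AK3 (0.9932) and FOXD1 (0.9821). The closest to IER2 were INTS15 (0.9859) and GMEB2 (0.9749), to ZFP36 GABPB1 (0.9963) and TNFRSF12A (0.9933), to ZFP36L1 RAET1L (0.9933) and MTMR11 (0.9925), and to ZFP36L2 BCL2L11 (0.9681) and SCAF1 (0.9648).

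The wider immediate early programme was followed through 37 further genes such as FOS and JUN subunits, dual-specificity phosphatases and Krüppel-like factors, of which 35 were tested. This list and those below were chosen with earlier results of these data known. With Y15, where 18.8% of all genes rose and 23% fell, 23 of the 35 rose and 1 fell. The median log2 difference of the 35 was 1.15. Among them CSRNP1, a nuclear factor induced by AXIN1, rose 7.42-fold (limma adjusted p = 1.32e-07), beside DUSP5, which inactivates nuclear ERK (24.9-fold, 1.8e-09), and FOSL1, an AP-1 subunit (7.03-fold, 2.19e-07). With HAS3 siRNA, where 3.47% of all genes rose and 4.74% fell, 3 of the 35 rose and 6 fell, with a median of -0.17. ATF3, a stress-induced repressor, fell 5.50-fold (adjusted p = 0.000132) and KLF4, a Krüppel-like factor, 3.06-fold (0.00129), while KLF2 of the same family rose 2.13-fold (0.00249). The scrambled arrays lay far apart for ATF3 (7.66 and 8.73) and KLF4 (7.555 and 8.319), so the folds of these genes are imprecise. The difference of the 2 effects passed for 19 of the 35, 18 of them higher with Y15. Over all genes 30.8% passed and 13.8% were higher.

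The mRNAs of the signalling input moved in both directions with Y15. Of 25 genes from EGFR through RAS, RAF and ERK to SRF, its cofactors and CREB, 15 were tested. Of these, 6 rose and 3 fell with Y15, with a median of 0.30. Over all genes 18.8% rose and 23% fell (41.8% in either direction). MAPK3 (ERK1) fell by 1.01 ± 0.13 (log2, limma adjusted p = 9.62e-05) and MRTFB, an SRF coactivator, by 0.96 ± 0.15 (0.000378), whereas ELK4, an ETS partner of SRF, rose by 0.97 ± 0.18 (0.00102). On the second Y15 array MRTFB was at 4.98, close to the lowest level detected there for any probe, 4.93. With HAS3 siRNA none of the 15 passed, where 8.22% of all genes did, and 4 had an unadjusted limma p under 0.05. Transcript levels say nothing of the phosphorylation by which these proteins act.

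Among 10 partners of EGR and NR4A proteins, 9 were tested, and 4 rose and 3 fell with Y15. Over all genes 18.8% rose and 23% fell. NAB2, a corepressor that binds EGR1 and EGR2 and is itself induced by EGR1 in other cells, fell by 0.95 ± 0.16 (log2, limma adjusted p = 0.000646), the direction opposite to EGR1 and EGR3. CREBBP, a coactivator and acetyltransferase, rose by 0.97 ± 0.13 (0.000155), and RXRA, a retinoid receptor that pairs with NR4A1 and NR4A2, fell by 0.67 ± 0.15 (0.00412). With HAS3 siRNA only WT1, a zinc finger factor whose DNA sites resemble those of EGR1, passed, with a 2.17-fold rise (adjusted p = 0.000289). Of all genes 8.22% passed there.

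Of 24 tested genes of the CCR4-NOT complex, decapping and decay, through which ZFP36 proteins act, 4 rose and 5 fell with Y15 and 15 did not pass, with a median of 0.14. The share that passed was near the 41.8% of all genes that did, so the count does not set this list apart. The decapping enzyme DCP2 rose by 0.60 ± 0.14 (log2, limma adjusted p = 0.00556) and its activator DCP1A by 0.59 ± 0.15 (0.00786), while DCP1B, the paralog of DCP1A, fell by 0.65 ± 0.15 (0.00521). None of the 24 passed with HAS3 siRNA, where 8.22% of all genes did, and 2 had an unadjusted limma p under 0.05. Among 9 other proteins that bind AU-rich or nearby elements, 2 rose and 3 fell with Y15, where 18.8% of all genes rose and 23% fell. ELAVL1 (HuR), which stabilises many AU-rich mRNAs, fell 2.24-fold (adjusted p = 0.000313) and AUH fell 2.70-fold (1.25e-05), and ZC3H12A (regnase-1), an endonuclease for inflammatory mRNAs, rose 2.001-fold (0.000641). On the second Y15 array ELAVL1 (5.01) and DCP1B (5.02) were close to the lowest level detected there for any probe, 4.93. ZC3H12A was also the only one of the 9 to pass with HAS3 siRNA, higher by 0.62 (log2, adjusted p = 0.0424).

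Of 27 AU-rich mRNAs known as targets of ZFP36 proteins in other systems, 17 were tested. With Y15, where ZFP36 and ZFP36L1 were at their highest, 8 of the targets rose and 2 fell, beside 18.8% and 23% of all genes. The median log2 difference of the targets was 0.21. The rises with the smallest p were of PIM1, a survival kinase (13.3-fold, limma adjusted p = 4.92e-08), PLAUR, the urokinase receptor (7.23-fold, 1.49e-07), and PLAU, urokinase (3.33-fold, 2.79e-06). PIM1 lay at 4.99 and 4.84 on the untreated arrays, where the lowest levels detected for any probe were 4.76 and 4.83, so its fold is imprecise. CXCL8, the chemokine interleukin-8, rose 4.96-fold (1.39e-05). With HAS3 siRNA, where ZFP36 and ZFP36L1 were lower than in scrambled cells, 1 target rose and 5 fell, beside 3.47% and 4.74% of all genes. The median of the targets was -0.19. CXCL8 fell 5.52-fold (adjusted p = 4.35e-05) and IL23A, a cytokine subunit, 2.95-fold (0.000927), while NOTCH1, a receptor of cell-to-cell signalling, rose 1.83-fold (0.0023). The scrambled arrays lay apart for CXCL8 (9.916 and 10.654), as did the HAS3 siRNA arrays for IL23A (7.159 and 6.475). The difference of the 2 effects passed for 11 of the 17, with 10 higher for Y15, where 30.8% of all genes passed and 13.8% were higher. Of the 17 targets, 7 did not pass with Y15 and 11 did not pass with HAS3 siRNA. Whether ZFP36 proteins acted on these mRNAs here was not tested. Protein amounts, phosphorylation and mRNA half-lives, through which these decay factors act, were not measured.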

How the data were processed

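The deposited non-normalized table holds the linear bead intensity of each probe, with a detection p-value beside it per the file headers, and the deposited series matrix holds log2 values, which equal the log2 of the raw intensities after quantile normalization to within 5e-09. The submitters' processing notes name GenomeStudio. The raw intensities are not background-subtracted. Background was corrected with nec of limma 3.58.1 (R 4.3.3), from the detection p-values, with an offset of 16, and log2 values were quantile-normalized. Probes with a detection p under 0.05 on at least 2 arrays were kept (14631), and the probe of highest mean stood for each gene (10856 genes, 1793 with more than 1 kept probe). Gene symbols are those of the platform annotation, brought up to date with a RefSeq gene list, and 21834 probes had 1 symbol and 2692 were unnamed.

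Group means over 8 arrays were fitted with lmFit and eBayes (4 residual and 11.8 total degrees of freedom), and tests were two-sided. The members and the gene lists were chosen with earlier results of these data known. Genes named outside the members were, by rule, HAS3 and PTK2, up to 3 of smallest p past the threshold in each list and main comparison, and the 2 closest in pattern to each member. The number of arrays limits the precision. The fit was tested on simulated data with known answers. Alternatives were other background corrections, scalings, filters and probe rules, a fit of 4 arrays, a block for the replicate number, and leaving out each array.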

Additional observations from a re-analysis of the deposited data

Results flagged for a closer look

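Of the 7 tested members, 6 had a Y15 effect that differed from the HAS3 siRNA effect in a test of the difference itself, a limma contrast over all 8 arrays with 2 arrays a group, adjusted over 10856 genes, of which 30.8% passed. The log2 difference of the effects, Y15 minus HAS3 siRNA, was 2.94 for EGR3, 2.67 for ZFP36, 2.52 for ZFP36L1 and 2.07 for EGR1, each with the Y15 effect above 0 and the HAS3 siRNA effect below it, and both past the threshold. For EGR3 this holds for the probe used, which had the higher mean of its 2 probes only through the Y15 arrays. The other probe gave a difference of 0.76 (adjusted p = 0.0653 over all probes), with 0.50 for Y15 (0.0691) and -0.26 for HAS3 siRNA (0.511). For IER2 it was 1.31, with a Y15 effect past the threshold and a HAS3 siRNA effect that missed it. For NR4A2 it was 1.14, with a HAS3 siRNA effect past the threshold and a Y15 effect that missed it. The HAS3 siRNA effects are against scrambled cells, and none of the falls passed under median centring over all probes. Against untreated cells the HAS3 siRNA level differed by 0.23 for EGR1 (limma adjusted p = 0.235), -0.23 for ZFP36 (0.284) and -0.42 for ZFP36L1 (0.0651). These did not pass, while EGR3 on the probe used (-0.62, 0.00717) and NR4A2 (-0.43, 0.0348) did. The other EGR3 probe gave -0.10 there (0.779 over all probes).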

How the results depend on the processing

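Signals near background limit NR4A1 and EGR3, NR4A2 had a low signal on the HAS3 siRNA arrays, and 2 arrays a group limit every test. The 6 members called with Y15 were also called under most alternatives, with 5 to 6 when 1 array was left out and 5 of 5 tested with detection p under 0.01 on all 8 arrays. Under median centring over all probes, 4 were called, with IER2 at 0.20 (adjusted p = 0.587) and ZFP36L2 at 0.35 (0.331) lost, and NR4A2 reversed to -0.15. This centring moved the median of all genes to -0.31 with Y15, and relative to that median NR4A2 was at 0.16 and IER2 at 0.51. It also moved the share of higher among called genes from 45% to 12.7%, while centring on the probes detected on all arrays, chosen after seeing the data, moved it to 64.9% and the median to 0.22.

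With HAS3 siRNA against scrambled the 5 calls were less stable. Under median centring 0 members passed in limma (5 at an unadjusted p under 0.05) and 323 of all genes in place of 892, with adjusted p of 0.056 for NR4A2, 0.0904 for EGR3 and 0.138 for EGR1. Centring on detected probes left 3, with ZFP36 and ZFP36L1 lost, and 462 genes. The fit of 4 arrays called 7 members and 1409 genes, and leaving out 1 array gave 2 to 6 members. Leaving out an array leaves 1 in its group, which is assumed to vary like the others. EGR1 and NR4A2 passed in each such fit. The share of higher calls was 42.3%, against 62.5% and 35.5% under the 2 centrings. All-gene counts were 319, 443, 452 and 347 without the first and second HAS3 siRNA and the first and second scrambled array.

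For scrambled against untreated, 2 members were called, and 1 under median centring (1055 of all genes in place of 2118, 11.7% higher in place of 45.3%), 1 with detection p under 0.01 on all 8 arrays and 1 to 3 without 1 array (696 to 1073 genes without the first untreated, the first scrambled or the second scrambled array). With detection p under 0.01 on all 8 arrays NR4A2 was not tested, so its call was absent there and not lost in a test. Centring on detected probes gave 1257 genes, 56.2% of them higher. Signs that turned were those of IER2 (-0.0306) and ZFP36L2 (-0.164) under median centring and of ZFP36L2 without the second untreated array (-0.146, in a range up to 0.384 over the fits without 1 array), none called. For HAS3 siRNA against untreated, 3 were called, 0 under median centring (3 at an unadjusted p under 0.05, and 1176 genes in place of 2843, 29.2% higher in place of 46.5%), 1 under centring on detected probes (1891 genes), 2 with the mean of probes and 0 to 4 without 1 array (1425 to 1791 genes where the count changed most). For the difference of the effects 6 members were called in each fit without 1 array and 4 under median centring, where NR4A2 and IER2 were lost, ZFP36L2 turned to -0.35 and the all-gene median was -0.46, with 10% of calls higher in place of 44.7%, or 69.3% on detected probes. The cause of these changes was not tested.

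The replicate numbers were not shown to pair the arrays, since deviations of same-numbered arrays correlated at -0.072 to 0.274. With the replicate block, 6 members were called with Y15, 6 with HAS3 siRNA (IER2 added), 2 between the control groups, 4 for HAS3 siRNA against untreated and 6 for the difference, and the count of all genes was 4851 with Y15 in place of 4538 and 1146 with HAS3 siRNA in place of 892.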
